A study of Homo sapiens with 6 samples.

Results

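The box C/D small nucleolar RNAs were taken as all genes of the count table whose symbol begins with SNORD followed by a digit, which gave 357 of 38167 genes. They were counted in RNA of small extracellular vesicles from Cal27 spheroids sampled at day 14 in Matrigel, a basement membrane gel. The sample titles name this RNA as EV mRNA, messenger RNA of extracellular vesicles. Cal27 is an established squamous carcinoma cell line of the tongue. The soft group had Matrigel at 3 mg/mL and the stiff group at 12 mg/mL, with 3 libraries each. Both groups shared the cell line, the spheroid culture and the isolation of vesicles from culture medium by dielectrophoresis, a way of holding particles in a shaped electric field. About 10 ng of RNA entered each directional, paired-end library of 61-base reads with 9 cycles of PCR, and the series title names matrix stiffness, vesicle release and Piezo1, a stretch-gated channel, as cargo. A single cell line was used, so the libraries of a group are repeats of 1 line and not of several tumours.

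Box C/D RNAs are short nucleolar RNAs named for a pair of sequence boxes, C near the 5′ end and D near the 3′ end, which bind the proteins SNU13, NOP56, NOP58 and the methyltransferase fibrillarin (FBL). Most members pair with ribosomal or spliceosomal RNA through the bases upstream of box D and thereby place a 2′-O-methyl group. A few, among them U3 (SNORD3A and copies), U8 (SNORD118), U13 (SNORD13), U14 (SNORD14A to SNORD14E) and U22 (SNORD22), act instead, or also, in processing or modification of the ribosomal RNA precursor. Most human members are cut from introns of host genes, whereas U3, U8 and U13 have promoters of their own. SNORD115 and SNORD116 are tandem arrays in the imprinted Prader-Willi region of chromosome 15, carried by introns of SNHG14 and known from neurons. SNORD113 and SNORD114 are imprinted arrays on chromosome 14, carried by MEG8.

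The arrays are shown first by the copies with the most counts and, for SNORD115, one with the fewest, because the comparison of levels below turns on how alike the copies are. Capitals mark the first TGATGA, the core of box C, and the last CTGA, box D, and coordinates are GRCh38. Sequences are those of GENCODE 29 transcripts within the RefSeq gene interval, read 5′ to 3′ on the strand of the gene, which is the plus strand for all 5.
SNORD115-14: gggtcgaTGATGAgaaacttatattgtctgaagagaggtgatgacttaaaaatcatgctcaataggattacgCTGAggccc
SNORD115-8: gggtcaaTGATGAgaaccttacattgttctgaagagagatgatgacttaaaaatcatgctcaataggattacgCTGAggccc
SNORD116-22: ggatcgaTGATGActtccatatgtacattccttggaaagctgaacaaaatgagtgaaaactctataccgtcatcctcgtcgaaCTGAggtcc
SNORD116-14: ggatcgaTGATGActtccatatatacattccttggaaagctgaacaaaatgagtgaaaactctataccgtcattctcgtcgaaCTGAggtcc
SNORD3A: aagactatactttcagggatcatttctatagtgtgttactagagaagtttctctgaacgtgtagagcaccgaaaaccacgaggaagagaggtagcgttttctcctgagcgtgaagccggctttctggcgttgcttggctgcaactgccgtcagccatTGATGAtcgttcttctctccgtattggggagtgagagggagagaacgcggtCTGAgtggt
SNORD115-14 lies at chr15:25194921-25195001 and SNORD115-8 at chr15:25184306-25184387, both in introns of SNHG14, and they differ by 5 edits over 82 bases (93.9% identity). SNORD116-22 at chr15:25089923-25090014, in an exon of SNHG14, and SNORD116-14 at chr15:25080142-25080233, in an intron, differ by 2 edits over 92 bases (97.8% identity). SNORD3A, the U3 gene at chr17:19188016-19188232, lies outside any other annotated gene and differs from its copy SNORD3C by 1 edit over 217 bases (99.5% identity).

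The copies of SNORD115 carry the stretch for which the family is known. The 18 bases atgctcaataggattacg stand just upstream of box D in both SNORD115 sequences above and are complementary to cgtaatcctattgagcat in a coding exon of the serotonin receptor gene HTR2C, at chrX:114848122-114848139 on the plus strand. They occurred whole in 29 of 48 SNORD115 copies and in 0 of 225 other members with a sequence. In SNORD116 copies the longest stretch complementary to any part of an HTR2C transcript was 9 to 11 bases, not necessarily at that site. Among the 273 members with a sequence, 67.4% had TGATGA within the first 16 bases, 94.5% had CTGA within the last 16, and 65.6% had both, searched on the gene's own strand. For SNORD115 the share with both was 83.3% and for SNORD116 93.3%. Of 142 H/ACA RNAs (SNORA genes), which use other boxes, 0.7% had TGATGA and 4.93% CTGA in those windows.

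Near-identical copies limit what a count for 1 copy means. Windows of 61 bases, the read length, were taken where they lay wholly within a gene. Of these, 37.4% in SNORD115 and 33.9% in SNORD116 occurred in more than 1 member, with 9 and 6 copies identical to another over their whole length. Reads that reach into flanking sequence, and their mates, were not searched, so these are not shares of reads. For the U3 genes the share was 81.5%, and for the 39 genes of SNORD113 and SNORD114 with a sequence it was 0%. Outside the arrays and outside the 7 genes taken here as U3, U8 and U13 lie 232 members. Of these, 148 had a sequence of at least 61 bases, and their share was 1.75%. The others could not be searched, among them several with U3 or U13 symbols. Arrays are therefore given mainly as sums, which do not depend on how reads were divided among copies if reads that fit several copies were counted. If such reads were dropped, the sums of SNORD115, SNORD116 and U3 are too low, and how they were handled is not stated in the labels or notes.

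The libraries held 2445498, 2525947 and 2545385 counts in soft and 2697502, 2900205 and 2977837 in stiff. Ribosomal RNA took 72660 to 225805 counts in soft and 580733 to 680826 in stiff, and the 13 mitochondrially encoded messengers 37734 to 45837 in soft and 4372 to 5843 in stiff. Soft replicate 3 stood apart from its group by its ribosomal RNA count, the 225805 just given against 72660 and 106093. Markers of squamous epithelium, the labelled cell type, came to 18.3 to 22.0 counts per kb of exon in the 6 libraries, and none of the 10 was at 0 in all of them. Those of neurons came to 18.6 to 21.2 counts per kb, those of fibroblasts to 12.0 to 13.9 and those of blood to 12.0 to 14.6, and none of these genes was at 0 in all libraries. By this measure the squamous markers were not above the neuron markers, and the part this plays in the results below was not tested.

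Box C/D RNAs were counted at very low numbers, in libraries whose titles name mRNA. How well such libraries hold RNAs as short as these was not tested, so the counts need not follow the levels of the mature RNAs. All 357 members together took 540, 590 and 529 counts in soft and 494, 525 and 477 in stiff. That was 0.0221% of counts in soft and 0.0174% in stiff. Summed over the 6 libraries, the median member had 7 counts (quartiles 4 and 12), the highest had 42, and no member had more than 11 counts in any library. At least 1 count in every library was seen for 65 members, and 101 to 126 members (28.3% to 35.3%) were at 0 in a given library. One member, SNORD65B, was at 0 in all 6, where a count of 0 allows up to 3 counts per library. The chi-square of members' counts across replicates, per degree of freedom, was 1.10 in soft and 1.09 in stiff, where a value of 1 is sampling noise alone.

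**Figure D1:**
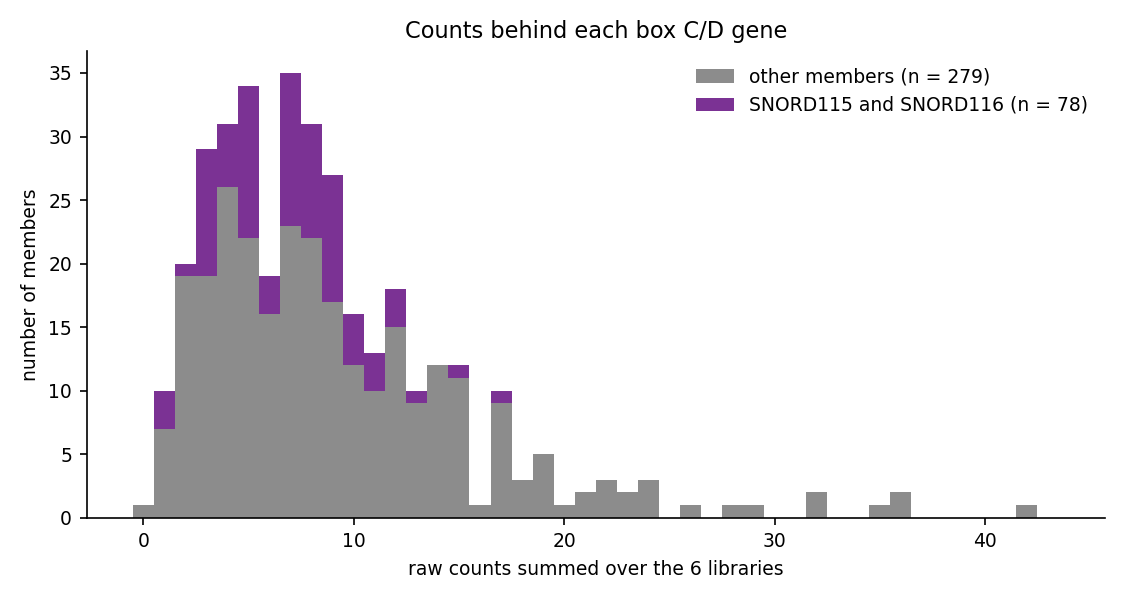
Number of box C/D members (y axis) by raw counts summed over the 6 libraries (x axis), for all 357 members, with SNORD115 and SNORD116 stacked in purple on the others in grey. The median is 7 counts and the largest value is 42, so most members rest on about 1 count per library.

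Counts had little relation to length. Gene lengths ran from 33 to 237 bases with a median of 81. Spearman's rho between length and summed counts was 0.11 over 357 members, and rho between GC content and counts per kb was 0.24 over 273. These are descriptions across genes that share the same 6 libraries. By GENCODE, 225 members (63.0%) lay wholly within introns, 120 (33.6%) overlapped an exon of some transcript of another gene, and 12 (3.36%) lay outside other genes. Members in exons had 1.11 ± 0.138 (SD, n = 6) times the counts per kb of members in introns, with values from 0.928 to 1.25, so the order differed between libraries.

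SNORD115 and SNORD116, the neuron arrays, were counted in all 6 libraries, at a lower density than the other members. Genes silent in most tissues were counted too, so these counts alone do not show that the arrays were expressed. The values for such genes are given with the other gene classes below. Their 78 genes together took 103, 90 and 97 counts in soft and 85, 84 and 74 in stiff. These were 19.1%, 15.3% and 18.3% of the member counts in soft and 17.2%, 16% and 15.5% in stiff. The means were 17.6% ± 2.03 (SD, n = 3) and 16.2% ± 0.872 (n = 3), which overlapped and did not differ by a two-sided exact permutation test over libraries (p = 0.4, where 3 against 3 cannot go below 0.1). Pooled over the libraries the arrays held 16.9% of 3155 counts (exact Clopper-Pearson 95% interval 15.6% to 18.2%, for counting error only).

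Per kb of gene, the arrays had 15.5, 13.5 and 14.6 counts in soft and 12.8, 12.6 and 11.1 in stiff. The 279 other members had 17.9, 20.4 and 17.7 in soft and 16.7, 18.02 and 16.5 in stiff. Arrays were thus lower in each of the 6 libraries, at 0.749 ± 0.084 (SD, n = 6) of the others' density, with values from 0.662 to 0.867. The ratio was 0.785 ± 0.108 in soft and 0.713 ± 0.046 in stiff (n = 3 each), and the groups overlapped (exact permutation p = 0.4). Without soft replicate 3 the mean over the other libraries was 0.734. With only members that overlap no exon of another gene, a comparison added after seeing the data, the ratio was 0.816 ± 0.118 (n = 6) and exceeded 1 in 1 library. Whether reads shared between copies lowered the arrays was not tested.

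The lower density lay mostly with SNORD116. SNORD115, with 48 copies between 25170723 and 25269858 on chromosome 15, took 77, 60 and 67 counts in soft and 64, 48 and 54 in stiff. Relative to the 232 members outside the arrays and U3, U8 and U13, its counts per kb were 0.877 ± 0.152 (SD, n = 6), from 0.680 to 1.09. SNORD116, with 30 copies between 25051476 and 25108352, took 26, 30 and 30 counts in soft and 21, 36 and 20 in stiff, at 0.514 ± 0.103 (n = 6) of the same members, from 0.411 to 0.683. Per kb SNORD115 was 1.78 ± 0.489 times SNORD116, above 1 in 5 of 6 libraries and 0.995 in stiff replicate 2. Both arrays lie in the same host, SNHG14, and had like shares of windows found in more than 1 member, 37.4% and 33.9%.

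**Figure D2:**
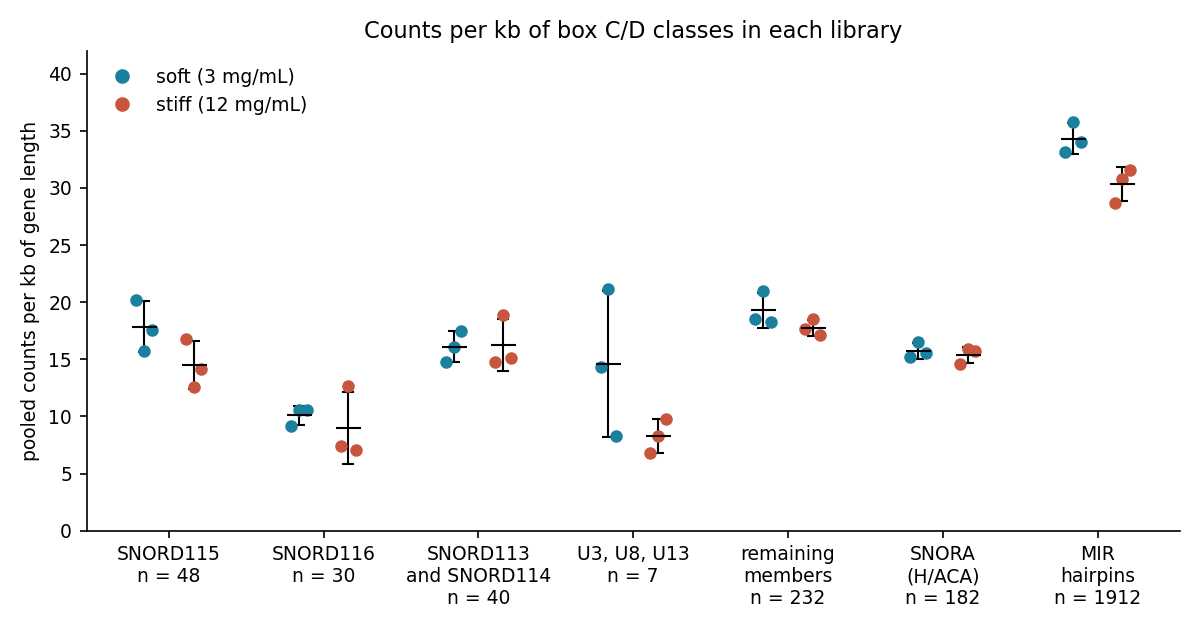
Pooled counts per kb of gene length (y axis) for each class of box C/D genes and for H/ACA and microRNA genes (x axis), with 1 point per library, coloured by group, a horizontal line at the group mean and whiskers of 1 SD (n = 3). SNORD116 sits at 7.03 to 12.7, below the 17.1 to 21.0 of the remaining 232 members in every library, while SNORD115 at 12.6 to 20.2 overlaps them.

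Within the arrays the copies differed by a few counts. SNORD115 copies had 3 to 17 counts over the 6 libraries, with a median of 8, and 30.2% of the copy-by-library values were 0. SNORD116 copies had 1 to 12, with a median of 5, and 43.3% of values were 0, against 30.0% among the other members. SNORD115-14, the copy with the most counts, had 4, 4 and 5 in soft and 2, 2 and 0 in stiff. Its soft libraries were all above its stiff ones. SNORD115-8, SNORD115-15, SNORD115-35, SNORD115-39 and SNORD115-47 had the fewest, 3 counts each, and SNORD115-47 is annotated at 33 bases only. SNORD116-22 had 3, 1 and 3 counts in soft and 3, 1 and 1 in stiff. SNORD116-14 had 1, 2 and 3 in soft and 0, 3 and 3 in stiff, so both leading SNORD116 copies overlapped between groups. SNORD116-3, SNORD116-20 and SNORD116-27 had 1 count each. Summed counts were higher in stiff for 18 SNORD115 copies and lower for 25, and higher for 12 SNORD116 copies and lower for 12. Among the other members 107 were higher and 129 lower, by raw counts from libraries that were deeper in stiff.

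**Figure D3:**
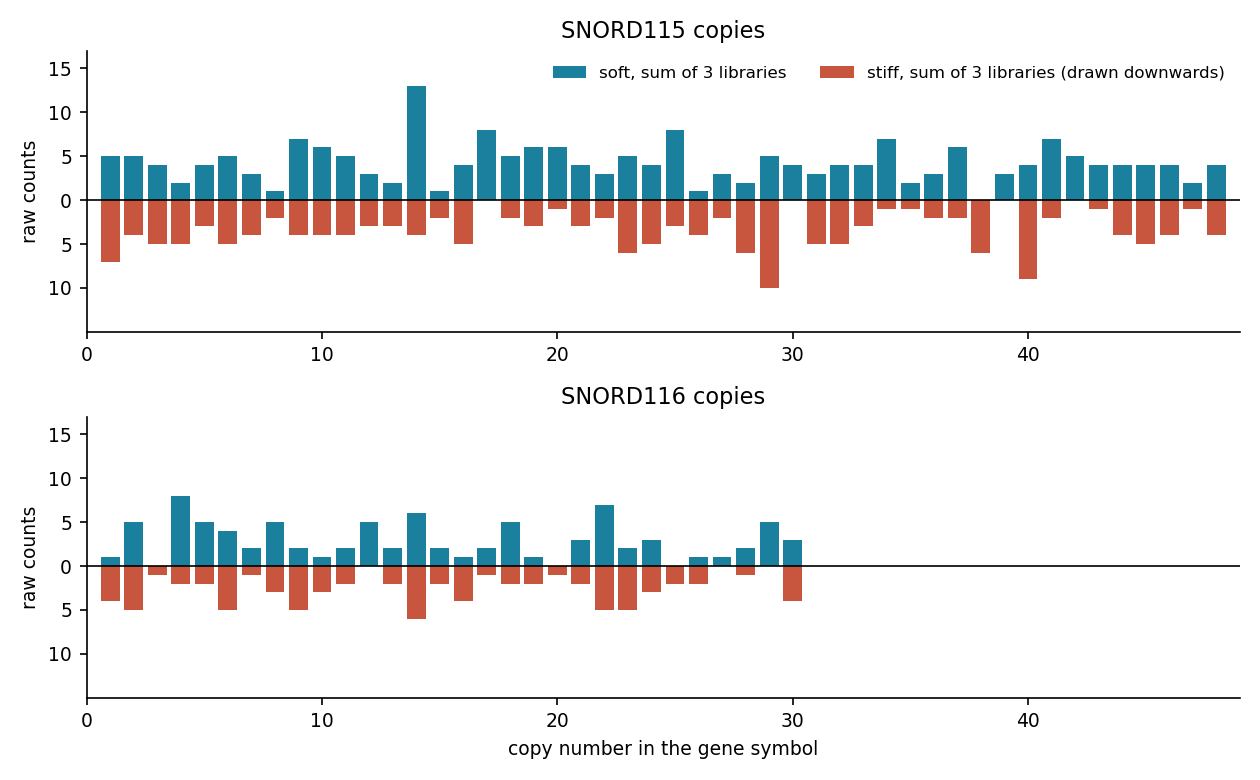
Raw counts summed over the 3 soft libraries (bars drawn upwards) and over the 3 stiff libraries (bars drawn downwards) for each copy of SNORD115 and SNORD116, by copy number in the symbol (x axis). No copy exceeds 17 counts over the 6 libraries, and SNORD115-14 has the tallest soft bar, at 13.

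Single members of the same region were as sparse. SNORD64, SNORD107, SNORD108, SNORD109A and SNORD109B together took 3, 8 and 7 counts in soft and 3, 4 and 6 in stiff. With these, SNHG14 carried 83 members with 106, 98 and 104 counts in soft and 88, 88 and 80 in stiff. SNHG14 itself, the long non-coding host RNA, had 261, 297 and 261 counts in soft and 254, 269 and 257 in stiff. Its TMM-scaled level was 101 ± 6.21 CPM in soft and 101 ± 3.36 in stiff (SD, n = 3 each; CPM scales counts to a common library total), with adjusted p = 0.992 by edgeR's quasi-likelihood test. Its exons had 6.15 counts per kb. SNRPN, the protein-coding gene upstream in the same region, had 31.4 ± 3.49 CPM in soft and 31.7 ± 1.84 in stiff (n = 3 each).

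Short genes gain counts from reads that only overlap their ends, so a density per kb of a gene of this size is not on the scale of a long gene. With 120 bases added to each member, the SNHG14 members came to 5.54 counts per kb beside the host's 6.15, and the members of MEG8 to 6.04 beside 5.18. The 10 members of GAS5, a non-coding host, came to 5.83 beside 4.45, and the 8 of SNHG1 to 6.34 beside 6.17. For the 4 members in the ribosomal protein gene RPL13A the values were 10.9 and 9.78, and for the 4 in RPL3 9.34 and 9.44. The 3 in HSPA8 had 2.44 against 6.05, and the 2 in PPAN 9.19 against 42.1. Members were thus near the density of the host's exons in most of these hosts and below it in HSPA8 and PPAN. The 120 bases are an assumed overhang, and no test was made of these pairs.

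Both imprinted arrays of chromosome 14 were counted in all libraries. SNORD113, with 9 genes between 100924821 and 100945719, took 6, 6 and 11 counts in soft and 12, 6 and 8 in stiff. SNORD114, with 31 genes between 100949833 and 100993309, took 37, 41 and 40 in soft and 31, 49 and 36 in stiff. Together they had 0.876 ± 0.0964 (SD, n = 6) of the counts per kb of the remaining 232 members, from 0.767 to 1.02. SNORD113 alone stood at 0.681 ± 0.2502 and SNORD114 at 0.932 ± 0.133 (n = 6 each). No 61-base window was shared among the 39 copies with a sequence.

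The 7 genes taken as U3, U8 and U13 have promoters of their own. By gene length they were below the remaining 232 members per kb in 5 of 6 libraries. With 120 bases added per gene they were above them in soft replicates 1 and 2. They are SNORD3A, SNORD3B-1, SNORD3B-2, SNORD3C, SNORD3D, SNORD118 and SNORD13. These 7 genes took 19, 28 and 11 counts in soft and 9, 11 and 13 in stiff. Per kb they stood at 0.606 ± 0.239 (SD, n = 6) of the remaining 232 members, from 0.385 to 1.01, the highest in soft replicate 2. Those 232 lie in introns (120), exons (104) or outside other genes, and hold 8 further U3 and 10 further U13 symbols, such as SNORD13D. In comparisons added after seeing the data, the ratio was 0.589 ± 0.227 (n = 6) without these symbols and 0.626 ± 0.261 (n = 6) against the 120 members in introns. The 5 U3 genes took 13, 24 and 8 counts in soft and 5, 9 and 8 in stiff, at 0.541 ± 0.280 (n = 6) of the same members. SNORD3A had 2, 11 and 2 counts in soft and 4, 3 and 2 in stiff, so soft replicate 2 was high and the others alike. SNORD3C, its near copy, had 2, 8 and 3 in soft and 0, 1 and 3 in stiff, also highest in soft replicate 2. SNORD3B-2 had 9 counts in soft and 4 in stiff, SNORD3D 8 and 3, and SNORD3B-1 0 and 2. SNORD118 (U8), which overlaps an exon of TMEM107, had 4, 4 and 2 in soft and 3, 0 and 5 in stiff. SNORD13 (U13) had 2, 0 and 1 in soft and 1, 2 and 0 in stiff.

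Members within host genes that also act on the ribosomal RNA precursor were no higher. By GENCODE, SNORD14A and SNORD14E lay in introns, while SNORD14B, SNORD14C, SNORD14D and SNORD22 overlapped an exon of some transcript. SNORD14A, in RPS13, had 2, 2 and 1 counts in soft and 1, 2 and 1 in stiff, and SNORD14B in the same gene 2, 0 and 1 and 2, 1 and 0. SNORD14C, SNORD14D and SNORD14E, in the chaperone gene HSPA8, had 4, 3 and 2 counts over the 6 libraries. SNORD22, in SNHG1, had 1, 4 and 1 in soft and 1, 0 and 0 in stiff. The soft and stiff ranges of all 6 overlapped.

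The members with the most counts were not from the arrays. SNORD48 was among the densest by counts per kb and overlaps an exon of some transcript of its host, so its sequence is shown with the boxes in capitals.
SNORD48: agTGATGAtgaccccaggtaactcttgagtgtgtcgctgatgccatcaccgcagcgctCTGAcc
SNORD48, at chr6:31835263-31835326 on the plus strand in C6orf48, had 4, 8 and 4 in soft and 6, 1 and 5 in stiff, a mean of 72.9 per kb. The groups overlapped. SNORD134, in an intron of the fatty acid synthase gene FASN, had the most counts, 8, 8 and 9 in soft and 4, 5 and 8 in stiff. SNORD167 in ACAP3 had 7, 9 and 5 in soft and 5, 3 and 6 in stiff. SNORD13D in TCF12 had 4, 7 and 7 and 8, 3 and 7. Their groups overlapped too. Also among the 10 densest, besides SNORD141A below, were SNORD165 in RADIL, SNORD62B in PRRC2B, SNORD147 in PLEKHA7, SNORD57 in NOP56 and SNORD4B in RPL23A. These had 47.3 to 68.8 counts per kb and overlapping groups.

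Other classes of small RNA genes in the same libraries had like or higher densities. Members had 15.3 to 18.9 counts per kb over the 6 libraries, SNORA genes (182 H/ACA RNAs, which guide pseudouridylation) 14.6 to 16.5, and SCARNA genes (29 RNAs of Cajal bodies) 15.5 to 22.2. Hairpins of microRNAs (1912 MIR genes) had 28.7 to 35.8. Members stood at 1.09 ± 0.0638 (SD, n = 6) of SNORA genes by gene length but at 0.847 ± 0.0497 with 120 bases added, so that order turns with the length used. Against MIR genes the ratio was 0.523 ± 0.0266 by gene length and 0.543 ± 0.0276 with the added bases. Among long genes, the median protein-coding gene had 14.8 to 16.8 counts per kb of exon (18887 genes) and the median olfactory receptor gene, silent in most tissues, 10.2 to 12.1 (380 genes). With 120 bases added per member, the members had 6.45 to 7.98, below both, so the order against long genes also turns with the length used. The same held for SNORD115 and SNORD116 together, at 11.1 to 15.5 by gene length and 4.62 to 6.43 with the added bases. SNORD115 alone had 12.6 to 20.2 and 5.01 to 8.04, and SNORD116 alone 7.03 to 12.7 and 3.10 to 5.59. These values therefore cannot decide whether the neuron arrays were above genes silent in most tissues.

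**Figure D4:**
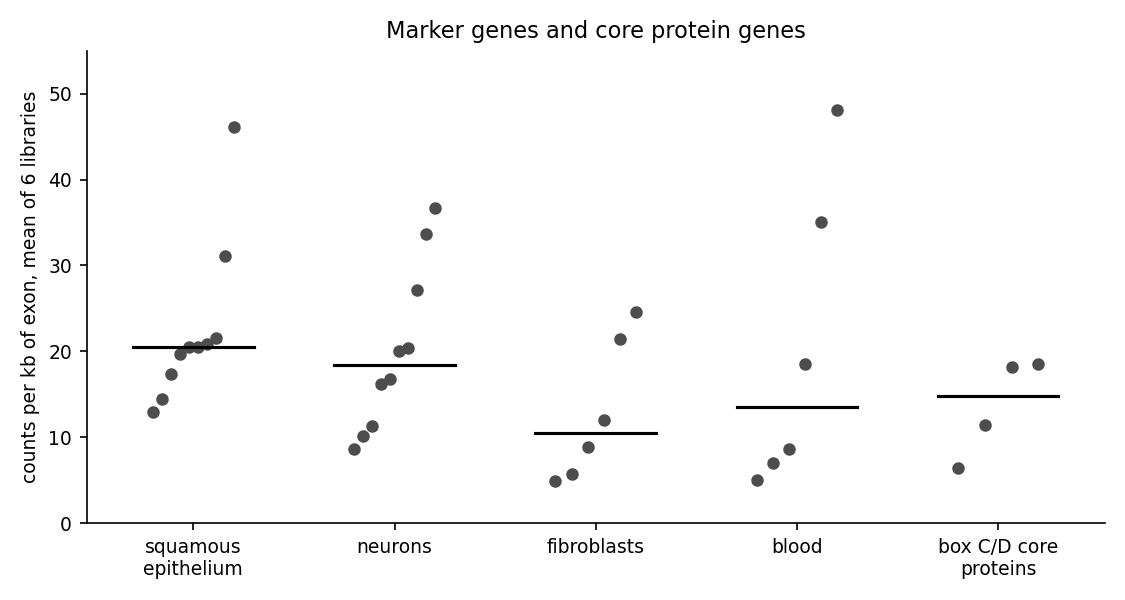
Counts per kb of exon as the mean of the 6 libraries (y axis) for genes marking squamous epithelium, neurons, fibroblasts and blood and for the 4 box C/D core proteins (x axis), with 1 point per gene and a line at the median gene. The median squamous marker, at 20.5, and the median neuron marker, at 18.4, lie within the spread of either list.

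Stiff libraries held a smaller share of box C/D counts than soft ones, and the size of the difference depended on what the counts were divided by. Divided by all counts of the library, members stood at 221, 234 and 208 CPM in soft and 183, 181 and 160 in stiff. The soft libraries were all above the stiff ones. Means were 221 ± 12.9 and 175 ± 12.7 (SD, n = 3 each), a stiff to soft ratio of 0.792 with the smallest p that 3 against 3 libraries allow (two-sided exact permutation p = 0.1). Without soft replicate 3, which stood apart by its ribosomal RNA, the ratio was 0.769. Ribosomal RNA, which was higher in stiff, is in that denominator. Without ribosomal RNA and mitochondrially encoded genes in it the means were 237 ± 9.78 and 223 ± 13.7, a ratio of 0.941 (exact permutation p = 0.3). With TMM-scaled library sizes they were 204 ± 8.65 and 194 ± 11.2, a ratio of 0.951 (exact permutation p = 0.4). In both the groups overlapped, and the TMM ratio had a 95% interval of 0.885 to 1.02 for counting error only. In vesicle RNA of whole spheroid cultures, a smaller number of releasing cells of some kind and less RNA per cell cannot be told apart.

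The pooled sum of SNORD115 and SNORD116 followed the same order. Divided by all counts, the arrays had 42.1, 35.6 and 38.1 CPM in soft and 31.5, 28.96 and 24.9 in stiff, which did not overlap. Means were 38.6 ± 3.27 and 28.4 ± 3.36 (SD, n = 3 each), a ratio of 0.736 (exact permutation p = 0.1). SNORD115 alone had 31.5, 23.8 and 26.3 CPM in soft and 23.7, 16.6 and 18.1 in stiff, with no overlap (exact permutation p = 0.1). SNORD116 alone had 10.6, 11.9 and 11.8 in soft and 7.79, 12.4 and 6.72 in stiff, where stiff replicate 2 was above every soft library (exact permutation p = 0.4). With TMM scaling the ratio of the pooled sum was 0.885 (exact permutation p = 0.2; 95% counting interval 0.741 to 1.05). The 279 other members had 179, 198 and 170 CPM in soft and 152, 152 and 135 in stiff, a ratio of 0.804 by all counts (exact permutation p = 0.1) and of 0.966 by TMM (p = 0.6 by the same exact test; interval 0.892 to 1.04). Arrays and other members were also compared within each library. The arrays' percent of member counts overlapped between groups (exact permutation p = 0.4, above). As a ratio of the medians over members, arrays over others stood at 0.890, 0.835 and 0.878 in soft and 0.798, 0.815 and 0.809 in stiff. These did not overlap, with the smallest p that 3 against 3 allow (exact permutation p = 0.1). At a median of 7 counts per member over the 6 libraries, a median per kb is set largely by the length of the middle member. This ratio therefore cannot decide whether the arrays differed between groups.

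**Figure D5:**
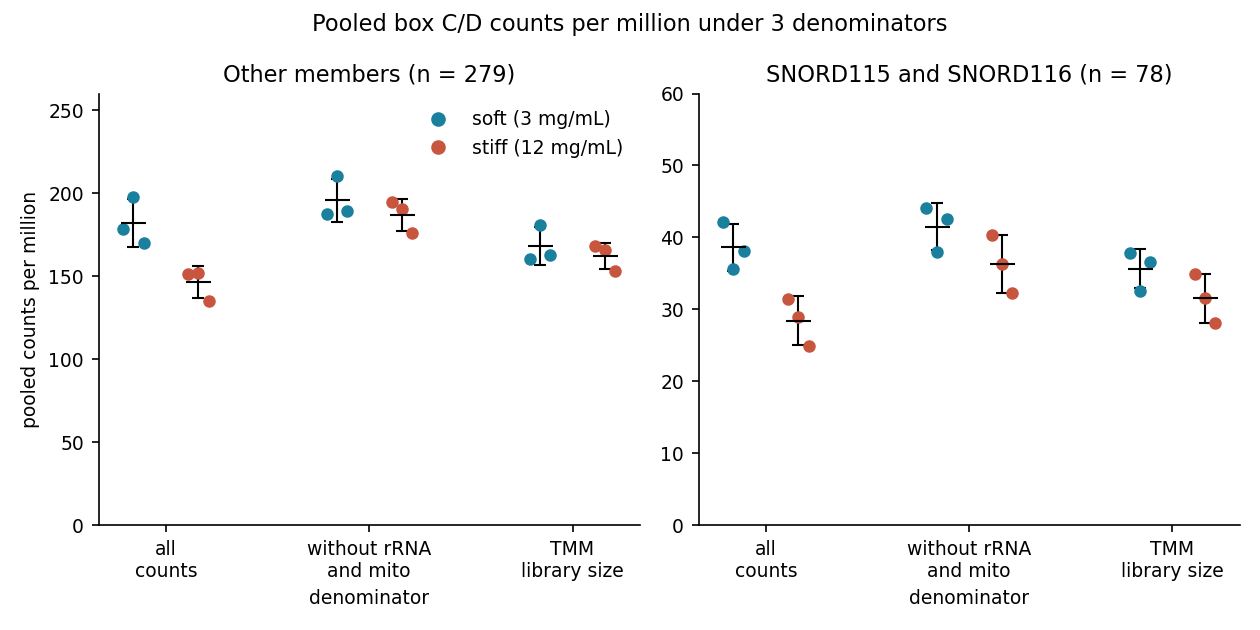
Pooled CPM (y axis) of the other members (left) and of SNORD115 and SNORD116 (right) under each of 3 denominators (x axis), with 1 point per library, a line at the group mean and whiskers of 1 SD (n = 3). By all counts the soft points lie above the stiff points in both panels, and by the TMM-scaled library size the groups overlap.

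By class and with TMM scaling, stiff to soft ratios were 0.862 for SNORD115, 0.938 for SNORD116 and 1.06 for SNORD113 with SNORD114 (exact permutation p = 0.3, 0.8 and 0.6). In each the groups overlapped. The 7 genes of U3, U8 and U13 had 7.09 ± 3.00 CPM in soft and 4.26 ± 0.631 in stiff (SD, n = 3 each), a ratio of 0.601 (exact permutation p = 0.2). The groups overlapped, and without soft replicate 2 the ratio was 0.766. SNORA genes stood at 0.858 by all counts and 1.03 by TMM, and MIR genes at 0.775 and 0.931, so a ratio under 1 by all counts was common to these classes. It was not particular to them, since with library totals alone the median log2 fold change over all genes tested was -0.27.

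No member could be tested alone in the filtered fit. Of the 357 members 0 passed the filter on low counts, which asks for about 10 counts in 3 libraries, while 140 of the 31074 genes tested, 0.451%, passed an adjusted p under 0.05 by edgeR. Without the filter, 356 members were tested and 0 were called by edgeR, against 0.373% of all genes, and the lowest adjusted p of a member was 0.185. At an unadjusted p under 0.05, edgeR gave 14 members (3.93%; 3 higher and 11 lower in stiff), against 8.76% of all genes. DESeq2 gave 3 (0.843%; 1 higher and 2 lower), against 4.41% of all genes, and no adjusted p for any member. Members' shares were thus below the background in both, but that background was not matched to the members' low counts. It cannot show whether members change less than genes of like counts, and the same limit applies to the overlap of counts that follows. TMM-scaled counts did not overlap between the groups for 20 members that were higher in stiff (5.62%), against 6.93% of all genes, and for 16 that were lower (4.49%), against 6.36%. The unfiltered log2 fold change was above 0 for 190 members and below 0 for 166, with a median of 0.067 beside -0.002 over all genes. With members at 0 in a group set to their bound, the median over the 329 members that then had a fold was 0.075. These medians point up whereas the pooled TMM ratio of 0.951 points down.

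The members with the lowest p-values, named without the filter because it left none, rested on few counts. Among those lower in stiff, SNORD43 and SNORD12C led, and their sequences are shown with the boxes in capitals.
SNORD43: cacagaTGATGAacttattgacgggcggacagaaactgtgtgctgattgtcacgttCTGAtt
SNORD12C: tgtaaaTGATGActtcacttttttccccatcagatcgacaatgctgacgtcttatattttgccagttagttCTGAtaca
SNORD43, at chr22:39319052-39319113 on the minus strand in RPL3, had 9, 5 and 0 counts in soft and 0, 0 and 1 in stiff. One soft library was at 0, so the groups overlapped, and the difference was -3.32 ± 1.08 on the log2 scale (SE; edgeR adjusted p = 0.185). SNORD12C, at chr20:49278945-49279023 on the plus strand in an intron of ZFAS1, had 4, 5 and 6 in soft and 1, 1 and 0 in stiff, with no overlap (-2.62 ± 0.94 on the log2 scale; edgeR adjusted p = 0.260). SNORD115-17 had 3, 3 and 2 in soft and 0 in all stiff libraries (edgeR adjusted p = 0.262). None passed the adjusted threshold.

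Among those higher in stiff, SNORD141A came first. It lies at chr9:133020430-133020534 within an exon of EEF1A1P5, a pseudogene of the elongation factor gene EEF1A1. It had 2, 1 and 4 counts in soft and 9, 5 and 11 in stiff, with no overlap (log2 fold change 1.86 ± 0.63, SE; edgeR adjusted p = 0.213). EEF1A1 itself had 40, 39 and 38 in soft and 70, 78 and 85 in stiff (edgeR adjusted p = 0.000115), and reads of the 2 genes may not be separable. SNORD115-38 had 0 in all soft libraries and 1, 1 and 4 in stiff. SNORD35A, in RPL13A, had 1, 0 and 0 in soft and 4, 2 and 3 in stiff (edgeR adjusted p = 0.404). The 4 members of RPL13A together had 4, 5 and 9 in soft and 15, 10 and 9 in stiff, with overlap at 9, beside 16, 17 and 26 and 26, 25 and 29 for the host (edgeR adjusted p = 0.611).

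The proteins of the box C/D particle did not differ between groups past the threshold. Of 20 genes 0 were called by edgeR or by DESeq2, 1 had an unadjusted p under 0.05 by each, against 9.51% of all genes by edgeR and 4.41% by DESeq2, and 11 log2 fold changes were above 0 and 9 below, with a median of 0.025. FBL, the methyltransferase, had 26, 41 and 44 counts in soft and 37, 48 and 41 in stiff, or 13.7 ± 3.67 and 16.3 ± 1.52 CPM (SD, n = 3 each; edgeR adjusted p = 0.786). NOP56 had 23.8 CPM in soft and 22.8 in stiff. NOP58 had 7.35 and 8.52, and SNU13 20.4 and 20.7. UTP3, a protein of the U3-containing processome, had 28, 20 and 31 counts in soft and 9, 17 and 9 in stiff, with no overlap, but missed the threshold (log2 fold change -1.10 ± 0.34, SE; edgeR adjusted p = 0.145). NAT10, the acetyltransferase guided by SNORD13, had 47.1 counts per kb.

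A list of 25 genes taken as hosts of members was tested apart from the members. By GENCODE no member lay in SNHG3, SNHG7, SNHG8, SNRPN, SNURF or MEG3, so shares over this list are not shares of hosts alone. Of the 25 genes listed, 24 were tested by edgeR and 0 called. An unadjusted p under 0.05 was seen for 7 (29.2%), against 9.51% of all genes. DESeq2 called 0 of 25, with 4 at an unadjusted p under 0.05, against 4.41% of all genes. Of the 7 by edgeR, 3 were higher in stiff and 4 lower. EEF2, an elongation factor gene that carries SNORD37, had 63.7 ± 6.65 CPM in soft and 83.8 ± 7.82 in stiff (SD, n = 3 each; edgeR adjusted p = 0.0542). SNORD37 had 5, 0 and 4 counts in soft and 2, 2 and 4 in stiff, which overlapped. RACK1, a ribosome-bound scaffold that carries SNORD95 and SNORD96A, had 6.64 CPM in soft and 13.5 in stiff (edgeR adjusted p = 0.0869), while its 2 members together had 2, 7 and 2 counts in soft and 2, 2 and 1 in stiff. NCL, the gene of nucleolin, had 28.5 CPM in soft and 40.3 in stiff (edgeR adjusted p = 0.132). The 4 lower in stiff were SNHG3, SNHG12, the chaperone gene HSPA8 and MEG3, with log2 fold changes of -0.60, -0.46, -0.59 and -0.24 and edgeR adjusted p of 0.497, 0.482, 0.442 and 0.386. Of these, SNHG3 and MEG3 held no member. The 10 members of GAS5 had 5, 15 and 9 in soft and 12, 11 and 15 in stiff. The 8 of SNHG1 had 12, 19 and 6 and 3, 12 and 8. In both, the groups overlapped.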

How the data were processed

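The deposited table holds raw counts of reads per gene symbol, which the authors made without normalization. Reads were handled with Trim Galore 0.4.2, cutadapt 1.9.1, FastQC 0.11.7, STAR 2.6.1e, featureCounts 1.6.2 and DESeq2 1.26.0 on hg38, per the submitters' processing notes, which give no roles. The annotation, the strand setting and the treatment of reads that fit several places are not stated in the sources used here. The labels name the libraries biological replicates and their descriptions number 2 stiff libraries alike, so title numbers were used; p-values measure the spread between these libraries. Replicate pairs differed by more than sampling noise (chi-square per degree of freedom 1.53 to 3.86).

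The members and gene lists were chosen with earlier results of these data known. Stiff was compared with soft over all genes by edgeR 4.0.16 (R 4.3.3; TMM, filterByExpr, robust quasi-likelihood, Benjamini-Hochberg over all genes tested), tested first on simulated data, with DESeq2 1.42.0 and limma 3.58.1 voom beside it. Sums were compared by two-sided exact permutation (SciPy 1.17.1). All 357 members matched RefSeq on GRCh38, which gave gene lengths, and 273 had a GENCODE 29 sequence. Intervals cover counting error only, since PCR copies were not marked with molecular identifiers.

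Named members were those called, the 10 densest per kb, the 10 with the most counts, the 3 with the lowest p in each direction, those acting on the ribosomal RNA precursor, and the array copies with the fewest and most counts. One member that this rule names is not reported here.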

Additional observations from a re-analysis of the deposited data

How the results depend on the processing

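The number of members called was 0 under all 13 alternative fits, of which 11 tested no member, so these fits say nothing of the stability of a member's change; the named members had no value in the filtered fit and therefore none to compare. Genes called over the whole table numbered 140 by edgeR with TMM, 4194 with library totals alone, which put the all-gene median on the log2 scale at -0.27, 81 by DESeq2, 91 by limma-voom and 60 to 136 without 1 library each. With a replicate block edgeR called 173 genes and 0 members. Deviations from the group means correlated at 0.0024, 0.0035 and -0.0036 between same-numbered libraries. These values cannot decide whether libraries were paired, since the deviations hold counting noise and the stiff numbers differ between titles and descriptions. The pooled stiff to soft ratio by all counts ran from 0.769 to 0.825 without 1 library each for all members, from 0.697 to 0.783 for SNORD115 and SNORD116 and from 0.777 to 0.840 for the others, with no p able to pass 0.05. The arrays' percent of member counts ran from 16.5% to 17.2% without 1 library each. It moved to 18.6% with SNORD113 and SNORD114 left out of the members and to 22.8% with only members that overlap no exon of another gene, an alternative chosen after seeing the data, in both by construction of a smaller denominator. Arrays over other members per kb ran from 0.726 to 0.767 without 1 library each and stood at 0.737 with 120 bases added per gene. As a ratio of medians over members it moved to 0.837, a value set largely by the lengths of the middle members at such low counts. By gene length the ratio of U3, U8 and U13 to the rest ran from 0.527 to 0.651 without 1 library each. With 120 bases added per gene, these genes were above the rest in soft replicates 1 and 2 and below in the other libraries. Depth limits each member: the median member had 7 counts over the 6 libraries.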
